A study of Homo sapiens with 52 samples.

Results

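A sharp border is a place where contact with the nuclear lamina changes abruptly from a 100 kb bin to the next. Contact was measured by single-cell DamID in KBM7, a cell line of human chronic myeloid leukaemia. The method expresses Lamin B1 fused to a bacterial DNA methyltransferase, Dam, which leaves adenine methylation on DNA near the lamina. The 51 cells used all came from clone 14 with ploidy 2N and formed 1 group. Per the labels' protocols, all were treated with 0.5 nM Shield1 for 15 h to induce methylation and sorted singly, by small size (the lowest 2%), among cells carrying both Fucci cell cycle markers. Since no separate cultures are named, the cells count as 1 sample of a single clone, SDs describe the spread between them, and p-values over cells were not computed.

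A cell counted as contacting the lamina with a bin where the ratio of observed to expected signal (OE) was at least 1, and the bin's contact frequency was the share of cells in contact. A pair of adjacent bins, both with a value in every cell, was taken as a sharp border where the contact frequencies differed by at least 30 percentage points, which is at least 16 of the 51 cells. Of 24963 adjacent pairs on the autosomes and joined chromosomes, 1566 were sharp borders (6.27%). Chromosome X was left out by this rule, and chromosome 8 and cell 47 were not analysed here. The joined chromosomes 9:22 and 22:9 are named as in the file, and their positions count along the joined sequence. All positions are on hg19. Because the contact frequencies chose the borders, their sizes, numbers and profiles are descriptions and were not tested.

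Genomic regions held at the lamina are called lamina-associated domains. They are long, mostly poor in genes and little transcribed, and population maps from other human cells are known for abrupt domain edges. In such maps, edges were often marked by the insulator protein CTCF, by CpG islands and by promoters directed away from the domain. These features and the genes at the borders were not analysed here, since no hg19 annotation or genome was used.

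Some borders rested on bins that could hold little signal. The values divide into a whole number of reads per cell and an expected number per bin, recovered here from the values, which had a median of 316. The scale of the expected number was set so that reads nowhere exceeded it. It is thus relative, and not the number of reads expected in a cell. Cells held 50978 (cell 9) to 316463 (cell 26) reads, with a median of 142540. These lay over 26584 measured bins, so a contact call can rest on few reads, also where the expected number is at least 100. Of the 1566 borders, 24 had a bin without a read in any cell, and 74 more had a bin with an expected number under 100. The other 1468 borders were 6.90% of the 21265 pairs in which both bins had an expected number of at least 100. The expected number itself hardly differed across these 1468 borders, with medians of 325 on the high-contact side and 327 on the low-contact side. It was smaller on the high-contact side at 774 borders and larger at 694. The larger of the 2 expected numbers exceeded the smaller by a median factor of 1.12 at borders and 1.12 at other pairs.

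The step was moderate at most borders. Contact frequency differed by a median of 41.2 points, with quartiles of 35.3 and 52.9 points. At least 50 points were reached by 478 borders, at least 70 points by 90 and at least 80 points by 21. Other adjacent pairs differed by a median of 1.96 points, which is 1 cell, and 9922 pairs (39.7% of all) did not differ. Sharp borders held 38.0% of the summed change of contact frequency along the genome. The threshold cut through a continuous range, with 183 pairs just inside at a difference of 16 cells (31.4 points) and 185 just outside at 15 cells (29.4 points). Just inside lay the pairs of chromosome 21 at 25400001 (16 against 0 cells), 24200001 (19 against 3), 15100001 (34 against 18) and 10900001 (35 against 19), and that of chromosome 20 at 58500001 (17 against 1). Just outside lay pairs of chromosome 1 at 48900001 (27 against 12 cells), 49300001 (15 against 0), 61700001 (31 against 16), 62500001 (24 against 9) and 66300001 (21 against 6). These are 5 of each, taken by position among equal differences. Here and below a border is named by the first base of its right-hand bin.

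Borders occurred on 19 of the 21 chromosomes and joined chromosomes with measured pairs, and contact rose along the chromosome at 797 and fell at 769. Chromosome 7 had the highest share, with 143 borders in 9.22% of its pairs. Chromosome 6 had 142 (8.46%), chromosome 11 had 110 (8.40%), chromosome 18 had 59 (7.88%), chromosome 4 had 144 (7.66%) and chromosome 5 had 134 (7.61%). Near the genome's share lay the joined chromosome 9:22 with 91 (6.86%), chromosome 3 with 132 (6.78%), chromosome 2 with 148 (6.24%), chromosome 21 with 22 (6.21%) and chromosome 10 with 78 (6.02%). Lower shares were found on chromosome 13 with 55 (5.72%), 15 with 28 (5.49%), 14 with 47 (5.35%), 12 with 67 (5.12%), 20 with 30 (5.03%) and 1 with 107 (4.78%).

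Borders were rare on the chromosomes with little contact. Chromosome 16 had 18 (2.32%) and chromosome 17 had 11 (1.42%). Chromosome 19 had 0 in 557 pairs, which allows up to 0.539% of pairs when the limit for a count of 0 is set at 3 counts, and 22:9 had 0 in 144 pairs, which allows up to 2.08%. These limits cover counting error only. The largest difference between neighbours was 29.4 points on chromosome 19 and 27.5 points on 22:9, both short of the threshold. The share of pairs that were borders went with the contact share of the chromosome (Pearson's r = 0.920, Spearman's rho = 0.881 over 21 chromosomes). Without chromosomes 16, 17, 19 and 22:9, r was 0.70 over 17. Chromosomes share the cells and both quantities come from the same calls, so this is a description. The count of chromosome 21 depended on bins of low expected number, since 9 of its 22 borders remained where both bins had at least 100, or 3.37% of such pairs.

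**Figure D1:**
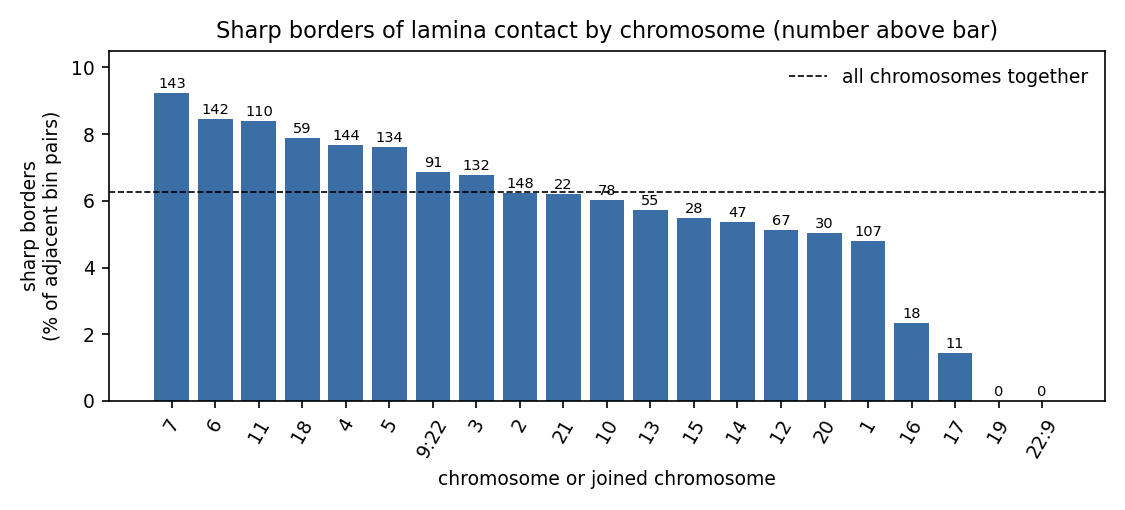
Share of adjacent 100 kb bin pairs that were sharp borders on each chromosome or joined chromosome (bars, %), with the number of borders above each bar. The dashed line marks the share over all of them, 6.27%, and the bars run from 9.22% on chromosome 7 to 0% on chromosome 19 and 22:9.

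Borders were less frequent near the outermost measured bins of the chromosomes, which need not be the chromosome ends. Within 5 Mb of these bins, 75 of 2001 pairs were borders (3.75%), against 1491 of 22962 pairs farther in (6.49%). Within 1 Mb they were 10 of 370 (2.70%). Neighbouring borders in the same stretch of measured bins lay a median of 0.6 Mb apart, with quartiles of 0.2 and 1.5 Mb and a largest distance of 23.8 Mb.

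The profile over 1 Mb on each side had its largest change at the border itself. The first bins on either side are those that the rule compared, so a change there was set by the choice. Over all borders, contact frequency averaged 64.7% ± 17.3 (SD over borders, n = 1566) in the first bin of the high-contact side and 19.3% ± 16.5 in the first bin of the low-contact side. The second bins averaged 67.5% ± 23.2 (n = 1561) on the high-contact side and 23.2% ± 26.6 (n = 1549) on the low-contact side. At 1 Mb the averages were 56.8% ± 36.7 (n = 1515) on the high-contact side and 40.0% ± 37.6 (n = 1509) on the low-contact side, so that single borders differed widely at that distance. Over bins 2 to 5, which the rule did not compare, the high-contact side exceeded the low-contact side by 35.7 points ± 35.2 (SD over borders).

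Borders fell into different kinds by what lay behind them. At 962 borders (61.4%) the mean of 5 bins on the high-contact side exceeded that of 5 bins on the low-contact side by at least 30 points, and these are called lasting borders. At 523 borders (33.4%) a sharp border of the opposite direction lay 1 or 2 bins away, so that the step was the flank of a narrow peak or dip. Both descriptions held for 134 borders and neither for 215. At 204 borders the next pair was a sharp border in the same direction, so the change took more than 1 step.

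The 921 lasting borders with expected numbers of at least 100 had the plainest profile. Contact frequency averaged 76.6% ± 21.6 in the fifth bin on the high-contact side, 74.1% ± 17.3 in the second and 65.8% ± 16.6 in the first. Across the border it averaged 19.0% ± 16.2 in the first bin, 14.1% ± 18.7 in the second and 20.4% ± 26.5 in the fifth (SD over 921 borders, except over 918 for the last). The bins that touch the border thus lay between the values of the second bins on either side. Most of the change took place between bins centred 0.15 Mb before and 0.15 Mb after the border.

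**Figure D2:**
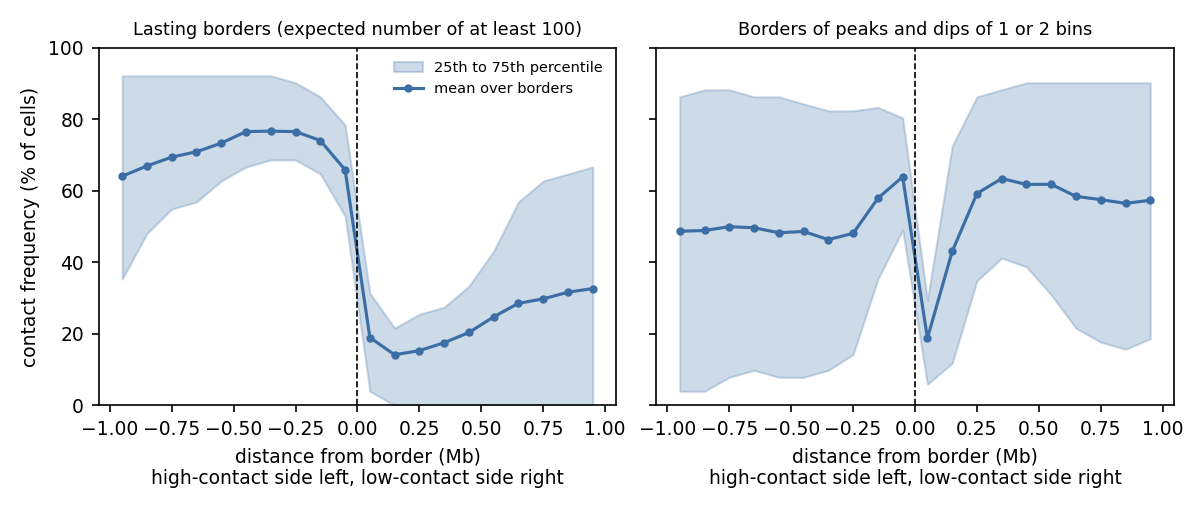
Contact frequency (% of 51 cells) against distance from the border in Mb, with the high-contact side on the left, as the mean over borders (points) and the 25th to 75th percentile (band). The left panel shows the 921 lasting borders with expected numbers of at least 100, with 65.8% against 19.0% in the bins at the border. The right panel shows the 389 borders of narrow peaks and dips that were not lasting. There, contact returned to 59.2% in the third bin of the low-contact side. Both kinds were chosen by the contact frequencies of bins shown here.

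The signal itself changed in the same direction in every cell. OE averaged over the border bins of a cell was lowest at 1.45, had a median of 1.78 and was highest at 2.13 on the high-contact side. On the low-contact side it was 0.354, 0.579 and 0.899. All 51 cells were higher on the high-contact side, which the choice of borders favours. An OE of 0 was found in 9.46% of values on the high-contact side and in 37.3% on the low-contact side. Values from 0.5 to under 1, close below the contact call, made up 14.3% and 17.9%.

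Among the 10 largest borders were 5 with expected numbers of at least 100 on both sides, and 1 of these lay on chromosome 7 at 31200001. The bin on its right was contacted in 45 of 51 cells. The bin on its left was contacted in 0 cells, which allows a share of up to 5.88% when the limit is set at 3 counts. This limit covers counting error only, in cells that are 1 sample, and it disregards that the border was picked by its size. OE on the high-contact side ranged from 0 to 4.41 with a median of 2.23, and on the low-contact side from 0 to 0.868 with a median of 0.202. Since no value on the left reached an OE of 1, the 45 contacted values on the right lay above them by definition. The other 6 cells had no contact on either side. Over 5 bins the contact frequency was 84.3% against 0.784%, and the step was 80 points in odd-numbered cells and 96.2 points in even-numbered cells.

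On chromosome 3 at 178700001 contact stopped on the right-hand side of a short domain. The high-contact bin was contacted in 46 cells and the low-contact bin in 2, and median OE was 2.31 against 0.146. The domain behind it was short, since the fifth bin inside was contacted in 90.2% of cells, the sixth in 62.7% and the seventh in 7.84%. On the low-contact side the first 8 bins stayed between 0% and 7.84%.

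On chromosome 4 at 183700001 a long contacted region ended in 1 step. Contact was found in 45 cells in the last bin of the region and in 4 cells in the next, with a median OE of 2.94 against 0.161. All 10 bins on the high-contact side were contacted in 84.3% to 100% of cells, and the 7 bins from the fourth to the tenth on the low-contact side in 0 cells. The largest border of chromosome 5, at 148100001, likewise ended in 1 step, with 42 against 0 cells and a median OE of 2.17 against 0. On its low-contact side 29 cells held no read in the first bin.

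Other chromosomes gave smaller largest steps. On chromosome 12 at 88400001 contact was found in 47 against 6 cells (80.4 points), and over 5 bins in 90.2% against 18.8%. On chromosome 10 at 118400001 it was found in 44 against 3 cells (80.4 points), and over 5 bins in 88.2% against 29.4%. Chromosome 18 at 34800001 had 45 against 6 cells (76.5 points), chromosome 14 at 20700001 had 37 against 5 cells (62.7 points) and chromosome 17 at 63600001 had 31 against 1 cell (58.8 points). These 5 borders were lasting. The largest of chromosome 16, at 77300001, had 43 against 11 cells (62.7 points) and was not, since 5 bins averaged 57.6% on its high-contact side and 71.8% on its low-contact side.

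Of the 23 borders named by size, 9 had a bin without reads or with an expected number under 100. A bin without a read in any cell formed the low-contact side on chromosome 6 at 95700001 and 95800001, which flank the same bin, with 44 and 47 cells in contact on the other side. The same held on chromosome 7 at 143900001 (46 cells), on 9:22 at 68500001 (45 cells, expected number 40), on chromosome 11 at 96300001 (42 cells) and on chromosome 15 at 20400001 (29 cells, expected number 27). The low-contact bin of chromosome 1 at 103800001 had an expected number of 1, and its OE was 0 in 48 cells and up to 94.5 in the other 3. On chromosome 20 at 29600001 the expected numbers were 36 against 58, and on chromosome 21 at 10600001 they were 14 against 6. Whether contact truly changes at these 9 borders cannot be read from such bins.

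**Figure D3:**
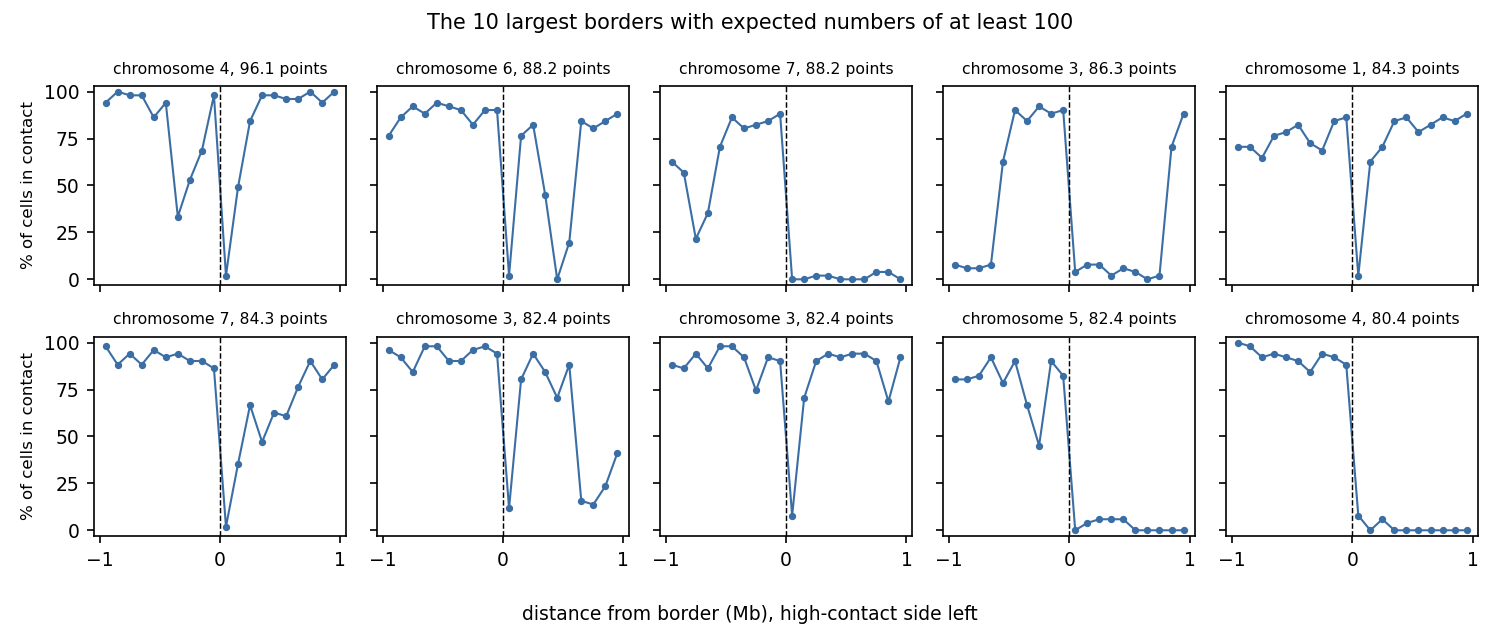
Contact frequency (% of 51 cells) over 1 Mb on each side of the 10 largest borders with expected numbers of at least 100, with the high-contact side on the left and the border dashed. Contact stayed at 7.84% or less in the first 8 bins beyond 4 of the borders, on chromosomes 7 (88.2 points), 3 (86.3 points), 5 (82.4 points) and 4 (80.4 points); beyond the others it returned within a few bins.

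The largest step of all belonged to a narrow dip. On chromosome 4 at 164400001, contact was found in 50 cells in the left bin and in 1 cell in the right bin, a difference of 96.1 points. OE ranged from 0.555 to 10.2 (median 3.07) on the left and from 0 to 1.97 (median 0.241) on the right. The next bin to the right was in contact in 25 cells again, and the third in 84.3% of cells. The expected numbers were 293 and 325, and the step was 92 points in odd-numbered cells and 100 points in even-numbered cells. A dip lay at several other named borders too, among them that of chromosome 2 at 157200001 (41 against 1 cells).

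Dips of 1 bin outnumbered peaks of 1 bin, with 116 and 48. With expected numbers of at least 100 in all 3 bins, 98 dips on 17 chromosomes and 33 peaks on 14 remained. A bin can be both a peak and the flank of a dip, so dips and peaks are not always separate sites. The following dips and peaks were picked as the deepest and highest after their values were seen. The deepest dip covered 75900001 to 76000000 on chromosome 6, with contact in 1 cell, against 46 in the bin to its left and 39 in that to its right. Chromosome 4 from 176300001 to 176400000 had 4 cells, against 44 on each side. Chromosome 3 from 28300001 to 28400000 had 6 cells, against 41 and 48. Chromosome 2 from 215600001 to 215700000 had 5 cells, against 41 and 45. Chromosome 7 from 120600001 to 120700000 had 6 cells, against 46 and 42.

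Dips were chosen from these calls for high flanks and a low middle bin, so the states of single cells at dips are a description. Over the 98 dips, an average of 38.7% of cells had contact in both flanking bins and not in the dip, against 37.6% from the product of the contact frequencies of the 3 bins. Another 17.4% had contact in all 3 bins and 26.9% in a single flank, with or without the dip. Among cells with contact in both flanks, 31.0% had contact in the dip as well. In all cells the dip was contacted in 19.9% on average, and in cells without contact in either flank in 1.89%. Contact in the dip alone was found in 0.320% of cells, against 1.30% from the product, and 16.6% had contact in none of the 3 bins. At the dip of chromosome 6, 36 cells had contact in both flanks only, 1 in all 3 bins, 11 in a single flank and 3 in none. The median OE of that bin was 0.152, against 2.91 on the left and 1.72 on the right.

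The flanking bins of the 33 peaks averaged a contact frequency of 19.1%, against 60.8% in the peaks. On average 33.9% of cells had contact in the middle bin only, against 38.5% from the product of the frequencies. Another 8.32% had contact in all 3 bins, 21.3% in a single flank, with or without the peak, and 36.4% in none. The highest covered 97400001 to 97500000 on chromosome 6, with contact in 43 cells, against 13 and 14 in its neighbours, and 23 cells had contact in that bin only. Chromosome 6 from 132900001 to 133000000 had 39 cells, against 19 and 2. Chromosome 18 from 71900001 to 72000000 had 37 cells, against 7 and 15, and chromosome 7 from 63400001 to 63500000 had 37 cells, against 3 and 19. These 4 peaks stood 51.0 to 57.8 points above the mean of their neighbours. Of these neighbours, the bins starting at 133000001 on chromosome 6 and at 71800001 on chromosome 18 were themselves dips of 1 bin. Next in height, at 48.0 points, chromosome 3 from 112600001 to 112700000 had 26 cells, against 3 and 0, so 23 cells had contact in that bin only. Its median OE was 1.04, close to the contact call.

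How often single cells switch at a border was read from the calls in its 2 bins. On average 46.6% ± 6.68 of borders (SD, n = 51 cells) had contact on the high-contact side only. Contact on the low-contact side only was found at 1.23% ± 0.616. Contact on both sides was found at 18.0% ± 5.99 and contact on neither at 34.1% ± 9.91. A cell therefore showed a switch at 47.9% of borders, against 9.22% of other adjacent pairs. Pairs that crossed a contact frequency of 50% without a sharp step, 780 in number, showed a switch in 30.4% of cases. The difference between the first and second share is the step used to choose borders, so only the division into 4 states adds to it.

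Switches in the opposite direction were rare at every border. No cell had contact on the low-contact side only at 908 borders (58.0%), 1 cell had it at 426, and the most was 5 cells. At 161 borders no cell contacted the low-contact bin, so such a switch could not occur there. The choice of borders also favours few such switches, since each lowers the step. In cells not used for the choice, their share was 1.79% (even-numbered cells) and 2.04% (odd-numbered cells), against 1.23% at the borders chosen in all cells. The switch from contact to no contact was made by 16 to 49 cells, with a median of 22, and by more than 50% of cells at 515 borders. The rest of the cells carried contact across the border or had none on either side.

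Cells differed in these shares. The share with contact on the high-contact side only was lowest at 30.8% in cell 42, had a median of 46.7% and was highest at 60.9% in cell 23. Cell 42 also had the highest share with no contact on either side, 55.3%, and the median over cells was 36.7%. Cell 26, the most deeply sequenced, had the lowest share with no contact on either side, 17.2%, and the highest with contact on both, 35.0%. Over all measured bins outside X, cell 42 had the lowest share of bins in contact, 23.2%, and cell 26 the highest, 38.8%.

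All 4 shares were set against contact share, reads and background over the 51 cells, which are 1 sample, and the part of each in them was not tested. Against the share of measured bins outside X that a cell contacted, r was 0.715 for the high side only and -0.189 for the low side only. It was 0.810 for both sides and -0.959 for neither. That contact share comes from the same calls and includes the border bins. Against reads, r was 0.449 (rho = 0.475) for the high side only, -0.547 (rho = -0.560) for the low side only, 0.626 (rho = 0.571) for both sides and -0.647 (rho = -0.664) for neither. Without the 2 cells farthest from the median depth, r was 0.476 for the high side only, -0.523 for the low side only, 0.512 for both and -0.591 for neither. Background was measured as the percentage of reads in bins that at most 5% of cells contacted. Against it, r was 0.309 (rho = 0.329) for the high side only, 0.0076 (rho = 0.171) for the low side only, 0.726 (rho = 0.739) for both sides and -0.647 (rho = -0.677) for neither. Without the 2 cells of most extreme background, r was 0.354 for the high side only, 0.0867 for the low side only, 0.765 for both and -0.685 for neither. The low-side-only share thus went with depth but hardly with background. After all cells were thinned to 50978 reads, contact on the low side only stood at 2.26% and contact on the high side only at 45.7%.

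**Figure D4:**
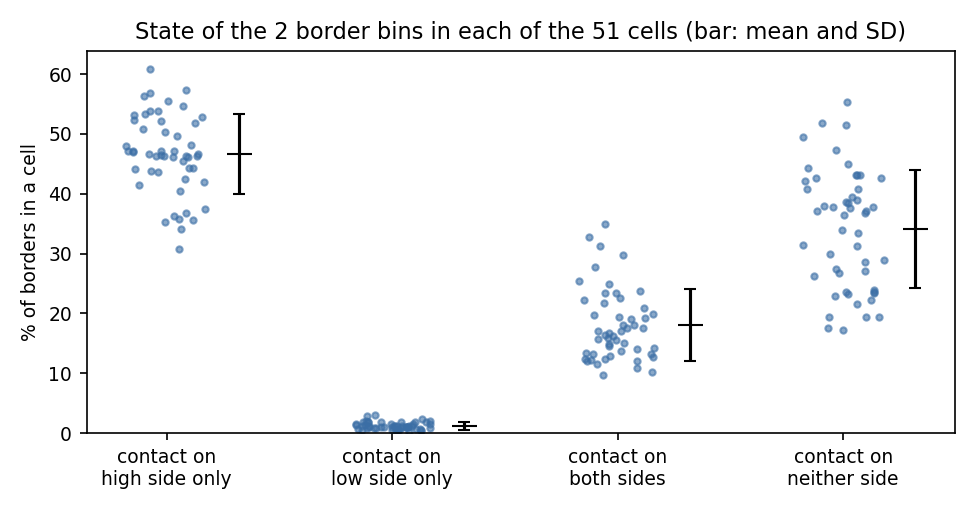
Share of the 1566 borders in each state of contact (%), with 1 point per cell and the mean and SD over the 51 cells beside them. Contact on the high-contact side only averaged 46.6% and contact on the low-contact side only 1.23%, and the points of these states do not overlap. The difference between these averages is the mean of the step used to choose the borders, so a gap between these states was set by the choice.

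Borders chosen in part of the cells were read in the rest, which the choice had not used. In the 25 odd-numbered cells 1736 pairs were sharp borders (6.95%), with a mean step of 45.7 points. The same pairs had a mean step of 39.4 points ± 18.2 (SD over borders) in the 26 even-numbered cells. Their direction was kept at 1721 of 1736 and opposite at 9, and 1210 (69.7%) again reached 30 points. Of the 1818 pairs chosen in even-numbered cells (7.28%), with a mean step of 44.3 points, the step read in odd-numbered cells was 39.2 points ± 18.8. The direction was kept at 1794 and opposite at 11, and 1210 (66.6%) reached 30 points. These are the same 1210 pairs as before, namely those that reached 30 points in the same direction in both sets of cells. In the cells not used for the choice, 41.2% of cases had contact on the high side only for each of these choices. Contact on the low side only was found in 1.79% of cases in even-numbered cells and in 2.04% in odd-numbered cells.

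Whether a cell switches exactly at the border was examined over 10 bins on each side. In each cell the split of the 20 bins was found that left most contacts on the high-contact side and fewest on the low-contact side, with ties shared equally. A case was clear where this split was at least 3 bins better than calling all 20 bins alike. A switch more than 7 bins from the border therefore could not be clear. Of 75276 cases at 1476 borders with all 20 bins measured, 30107 (40.0%) were clear. In 35.0% ± 5.19 of a cell's clear cases (pooled share, with the SD over 51 cells) the switch lay exactly at the border. It lay within 1 bin in 58.6% and within 2 bins in 68.7%. The choice of borders favours this place, since at each border at least 16 of the same cells lose contact between its 2 bins. Away from the border it lay inside the high-contact side in 36.5% of clear cases and inside the low-contact side in 28.5%.

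Lasting borders and narrow peaks and dips were told apart by the same bins and cells in which the switch is placed, so their values are a description of each kind. At the 921 lasting borders with expected numbers of at least 100, the switch lay at the border in 40.0% of 24946 clear cases and within 1 bin in 66.7%. At flanks of narrow peaks and dips that were not lasting it lay there in 6.76% of 2994 clear cases, and only 16.7% of cases were clear. The place was also read in cells not used to choose the borders, over borders of all kinds together. Borders of odd-numbered cells had the switch at the border in 32.1% of clear cases in even-numbered cells. Pairs that crossed 50% without a sharp step, 739 chosen in the same odd-numbered cells, had it there in 14.4%. With the choice in even-numbered cells the shares were 31.4% and 12.2%.

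Single borders reached far higher values. Among the 602 borders with at least 25 clear cells and expected numbers of at least 100, the switch was most often in place at that of chromosome 7 at 31200001, in 95.5% of 33 clear cells. Next were 9:22 at 107500001 (84.2% of 38 clear cells), chromosome 3 at 193300001 (83.7% of 43), chromosome 6 at 146300001 (80.8% of 26) and chromosome 4 at 183700001 (79.0% of 50). These 5 were picked by this value after it was seen. On chromosome 3 at 193300001 the high-contact bin was contacted in 40 cells and the low-contact bin in 0, 44 cells held no read in the low-contact bin, and the switch lay within 1 bin in 100% of clear cells.

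**Figure D5:**
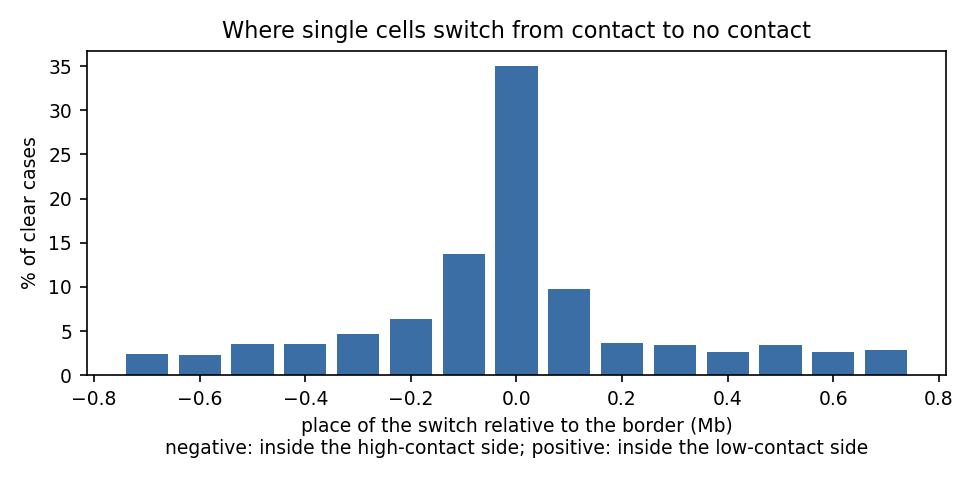
Place of the switch from contact to no contact in single cells relative to the border in Mb (bars, % of 30107 clear cases), with negative values inside the high-contact side. The bar at the border holds 35.0%, and no other place holds more than 13.8%.

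Sharp borders were set against all passages between low and high contact. Of 794 passages from a bin of at most 20% contact frequency to the next of at least 80%, or the reverse, 731 (92.1%) held at least 1 sharp border. Only 85 (10.7%, 95% Wilson interval 8.74% to 13.0%) were made in 1 step, and 324 (40.8%) took at most 2. A passage spans at least 31 cells, so those 324 hold a sharp border by arithmetic. Of the 470 wider passages, 407 (86.6%) held one. Over all 794 passages the median width was 0.3 Mb, with quartiles of 0.2 and 0.5 Mb and a largest width of 3.5 Mb. The 63 passages without a sharp border had a median width of 0.5 Mb. Together the 794 passages held 920 of the sharp borders (58.7%), and the other 646 lay at peaks, dips and steps that did not span this range.

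The 2 borders of a domain switched in the same cell slightly more often than the product of their shares. Between a rise and the next fall, 506 high-contact domains of 0.2 to 5 Mb were found, with a median length of 0.9 Mb. On average 26.2% ± 10.0 of cells (SD over domains) switched at both borders, against 23.8% from the product of the shares at each. Another 45.1% switched at 1 border only and 28.7% at neither. The share at both exceeded the product in 368 of 506 domains. The phi correlation between the borders over cells had a median of 0.103, against 0.0185 for borders of different chromosomes. It was 0.155 for the 169 domains of up to 0.5 Mb and 0.0555 for the 139 domains over 1.5 Mb. Cells share library and depth across borders, and these values are descriptions. The bins just inside the borders were both in contact in 55.0% of cells, 1 of them in 29.1% and neither in 15.8%.

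Low-contact gaps between a fall and the next rise gave like values. The 389 gaps of 0.2 to 5 Mb had a median length of 0.6 Mb. On average 25.3% ± 9.51 of cells switched at both of their borders, against 22.5% from the product, and the median phi was 0.118.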

How the data were processed

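Contacts were measured by Lamin B1 DamID in single KBM7 cells. The deposited table gives, in 100 kb bins and 1 column per cell, the ratio of observed over expected signal (OE). Cutadapt and Bowtie2 2.1.0 are named with hg19, per the submitters' processing notes. How the expected value was made is not given in the sources used here. In all, 30376 bins are listed, of which 26584 had a value in every cell and the rest in none.

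Whole reads were recovered from the ratios, given a scale for each cell and a whole expected number for each bin (100% of nonzero values within 0.02 reads). PCR reads carry no molecular identifiers, so intervals cover counting error only. The steps were tested on artificial data with planted borders.

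Named borders are the 10 largest and the largest of each chromosome. Members, lists and rules were chosen with earlier results of these data known. Alternatives changed the OE threshold, the minimum step, the bins, the cells, the depth and the windows. Python 3.11.15, NumPy 2.4.6, pandas 2.3.3 and SciPy 1.17.1 were used.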

Additional observations from a re-analysis of the deposited data

How the results depend on the processing

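Of 158 values recomputed under the alternatives, 126 stayed within a set range and 32 moved beyond it. That 0 changed direction says little, since counts and shares cannot do so. The steps of the named borders, 238 values counted apart, stayed within their range in 198 and moved beyond it in 40. The range was 1.5 times for the number of borders and the 95% Wilson interval for shares of pairs and passages. Otherwise it was 1 SD over cells, borders or domains. A change may thus pass as a number of borders and not as a share. The SD was 35.2 points for the profile difference of 35.7 points and 0.169 for the median phi of 0.103. Staying within so wide a range says little. The minimum step set the number of borders, with 2786 (11.2% of pairs, high side only in 38.3% of cases) for 20 points and 859 (3.44%, high side only in 54.9%) for 40 points. With the contact call lowered to 0.5, borders made up 6.78% of pairs and 2.58% on chromosome 17. Chromosome 19, with 0 borders, had 4 with that call, 4 for 20 points, 1 in odd-numbered and 3 in even-numbered cells, 2 after thinning and 1 without cell 9 or without cell 42. With the call raised to 2 they made up 4.54%, with 6.19% on chromosome 7 and 0.646% on chromosome 17, and 2.47% of passages took 1 step and 85.4% held a sharp border. Thinning to 50978 reads gave 5.65% of pairs, 2.26% contact on the low side only, 7.36% of passages in 1 step and 87.7% with a sharp border. Bins with a read in any cell gave 7.07% and expected numbers of at least 100 gave 6.90%. Odd-numbered cells gave 6.95% of pairs and 13.8% of passages in 1 step. Even-numbered cells gave 7.28%, with 11.3% on chromosome 7, 2.58% on chromosome 17 and 93.9% of passages with a sharp border. Without the 5 cells of highest background the shares were 6.59% of pairs and 93.9% of passages. A window of 5 bins placed the switch at the border in 57.6% of clear cases. This window offers fewer places and has its own clear cases, so the share cannot be set directly against 35.0%. Leaving out cell 9 or cell 42, chosen after seeing the data, gave 6.85% to 6.90% of pairs and 93.75% to 94.6% of passages with a sharp border; with 50 cells, 30 points is 15 cells. Apart from the minimum step, the cause of these changes was not tested. Of the 23 named borders, that of chromosome 17 had 25.5 points at an OE of at least 2 and that of chromosome 15 had 21.6 points after thinning; the others kept at least 30 points in every alternative run for them. The held-out step could not be had within odd-numbered or even-numbered cells alone. No paired analysis was possible because there is 1 group.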

Other observations

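Borders were crowded in places. The densest 5 Mb, found after the values were seen, lay on chromosome 4 from 143200001 to 148100001 and held 17 sharp borders, 9 of them rises. Contact frequency in this stretch averaged 37.9% and ranged from 0% to 96.1%, so contact was gained and lost many times within a short distance.

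The longest measured stretch without a sharp border covered 43.1 Mb of chromosome 1, from 17200001 to 60300000. Its bins averaged 5.39% and ranged from 0% to 74.5%, so contact frequency climbed to high values there through steps under the threshold.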
